A study of Mus musculus with 12 samples.

Results

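The expression of 10 genes of serine and one-carbon metabolism was followed in mouse embryonic stem cells (ESCs). They were chosen by symbol, Phgdh, Psat1, Psph, Shmt1, Shmt2, Gldc, Mthfd1, Mthfd2, Mthfd1l and Tyms, out of the 24881 gene symbols of the deposited table, and all 10 were among the 12572 genes tested. RNA-seq had been carried out on G1-phase sorted R1 ESCs, a mouse ESC line that here carried FUCCI, a fluorescent reporter of cell cycle phase. WT and P53-/- ESCs were each grown in serum, which is medium with serum and the cytokine LIF, or in 2i, which is serum-free N2B27 medium with LIF, the MEK inhibitor PD0325901 and the GSK3 inhibitor CHIR99021. Each of these 4 groups had 2 libraries, and all 8 libraries came from FUCCI ESCs sorted in the same phase. P53-/- ESCs were made with CRISPR-Cas9 directed at an exon that the Trp53 isoforms share, and were expanded as single-cell clones. The study used more than 1 clone for its sequencing, but the table does not tell which library came from which clone, or whether the libraries of a group came from separate dishes, so p values measure the spread between these libraries, which may be technical.

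Serine is made from a glycolytic intermediate in 3 steps catalysed by PHGDH, PSAT1 and PSPH. Serine hydroxymethyltransferases then split serine into glycine and a one-carbon unit carried by folate, and the glycine cleavage system releases a further unit from glycine. The MTHFD enzymes interconvert the carried units, which are spent on purines, thymidylate and methyl groups. Mouse ESCs in particular are known to draw one-carbon units from threonine through threonine dehydrogenase.

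Sequence upstream of the start is shown for 4 of the genes that behaved differently below, namely Phgdh and Psat1, with higher FPKM in every 2i library than in any serum library, Gldc, with lower FPKM in every 2i library, and Mthfd2, which was called in no comparison. The stretches come from the RefSeq promoter windows of GRCm38.p6, which reach from 250 bases before the start to 50 bases after it, were matched by symbol, and are written 5' to 3' on the gene's strand. They begin 200 bases before the start and end where an annotated exon or the start is reached. Capitals mark CCAAT or its reverse complement ATTGG, the letters of the CCAAT box. All 4 stretches hold these letters, while 4 of the 11 windows do not, among them a second Psat1 window at another annotated start and those of Shmt2, Mthfd1l and Tyms.
Phgdh, chr3:98339991-98340169, minus strand: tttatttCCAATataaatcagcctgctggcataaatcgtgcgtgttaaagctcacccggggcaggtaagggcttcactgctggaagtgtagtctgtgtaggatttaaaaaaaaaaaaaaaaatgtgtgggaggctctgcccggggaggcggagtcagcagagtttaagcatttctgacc
Psat1, chr19:15925060-15925259, minus strand: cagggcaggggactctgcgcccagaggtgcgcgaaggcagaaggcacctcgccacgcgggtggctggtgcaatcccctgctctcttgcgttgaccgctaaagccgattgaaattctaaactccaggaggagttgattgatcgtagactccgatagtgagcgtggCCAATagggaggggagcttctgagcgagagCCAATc
Gldc, chr19:30175442-30175641, minus strand: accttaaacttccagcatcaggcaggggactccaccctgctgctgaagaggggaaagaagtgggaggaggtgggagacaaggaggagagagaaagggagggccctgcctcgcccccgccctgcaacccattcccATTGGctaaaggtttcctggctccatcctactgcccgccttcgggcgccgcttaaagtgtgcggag
Mthfd2, chr6:83317607-83317804, minus strand: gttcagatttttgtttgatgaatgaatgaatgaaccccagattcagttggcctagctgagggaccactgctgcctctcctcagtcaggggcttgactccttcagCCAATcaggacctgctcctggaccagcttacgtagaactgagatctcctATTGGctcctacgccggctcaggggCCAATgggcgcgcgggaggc
CCAAT, searched on both strands, stood in 7 of the 11 windows of the 10 genes, against 37.4% of all 32851 windows. The genes were Phgdh, Psat1, Psph, Shmt1, Gldc, Mthfd1 and Mthfd2, so that genes with higher, lower and uncalled levels in 2i all held it. The E-box letters CACGTG stood in the Tyms window alone among the 10 genes and in 7.2% of all windows. TGATGNAA, a spelling of the element bound by C/EBP and ATF factors, stood in 4.0% of all windows and in 0 of the 11, and the E2F spellings TTTGGCGC and TTTCCCGC stood in 0.5% and 1.1% of all windows and in 0 of the 11. These are matches of letters, which say nothing on binding.

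Levels are given as FPKM, fragments scaled by transcript length and by mapped fragments, which the authors computed. Trp53 itself, as a check of the labels, was lower in both P53-/- libraries of each culture, at 7.25 and 1.88 FPKM where WT 2i had 26.8 and 33.7, and at 16.8 and 3.68 where WT serum had 77.6 and 75.1. Cdkn1a, the P53 target that codes for P21, stood at 15.9 to 23.9 in WT libraries and 3.56 to 4.64 in P53-/- libraries. By the rule for calls given below, Cdkn1a was called lower in P53-/- ESCs in both cultures. Trp53, whose P53-/- libraries lay far apart, was called in 2i but not in serum. The summed level of 10 pluripotency markers lay between 3660 and 4580 in all 8 libraries, but members moved within it. By the rule for calls given below, 1 rose and 3 fell in WT 2i against serum, as did 27.2% and 28.6% of all genes. In P53-/- ESCs 1 rose and 6 fell, as did 28.0% and 30.1%. Utf1 went from 53.5 and 51.8 FPKM in WT serum to 7.3 and 5.2 in WT 2i. Between P53-/- and WT ESCs in 2i only Klf4 was called, at 23.2 and 26.3 against 48.2 and 48.3 FPKM (5.97% of all genes were called lower). Of 12 fibroblast markers, 8 were below 1 FPKM in every library, with Col3a1 and Postn at 0, and the list's sum ran from 51.0 to 127. The others were present. Fn1 ran from 29.5 to 70.0 FPKM and Vim from 16.05 to 76.1, both ends of the Vim range being WT 2i libraries. Thy1 was at 7.55 to 10.45 in serum and at most 0.97 in 2i, and Pdgfrb was at most 1.72. The summed FPKM of primitive endoderm markers was 16.3 to 16.8 in WT 2i and 12.4 to 12.7 in P53-/- 2i. In serum it was 36.6 to 37.0 in WT and 23.1 to 28.8 in P53-/- ESCs. For epiblast and mesoderm markers it was 21.7 to 27.0 in WT 2i and 16.9 in P53-/- 2i. Their serum sums were 41.5 to 44.7 in WT and 43.0 to 47.5 in P53-/- ESCs. Neural markers summed to 32.1 to 34.6 in WT 2i and 23.3 to 28.1 in P53-/- 2i. In serum these were at 27.6 to 28.8 in WT and 37.7 to 42.4 in P53-/- ESCs. Members of a list did not all move alike, as the primitive endoderm factor Gata4 rose in 2i in both genotypes while the collagen gene Col4a1 of the same list fell. In P53-/- against WT ESCs in 2i, Col4a1 and the neural gene Tubb3 were called lower (log2 -2.26 and -0.62). No marker of these lists was called higher there. The part of other cell types in the results was not tested. Depth, estimated from the smallest steps between FPKM values, was 5200000 to 13200000 fragments per library, up to a factor common to all.

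FPKM is scaled by length, so levels can be set side by side between genes. Psat1 had the highest FPKM of the 10 in every library and made up 35.0% to 44.8% of their summed FPKM. The lowest was Tyms in 5 libraries and Gldc in 3, and the 3 were those 2i libraries in which Gldc was under 30 FPKM. The summed FPKM of the 3 serine synthesis genes was lowest in WT serum, at 409 and 416, followed by P53-/- serum at 482 and 433, WT 2i at 641 and 617, and P53-/- 2i at 740 and 719. The 4 groups did not overlap in this sum, and Psat1 supplied most of it throughout.

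**Figure D1:**
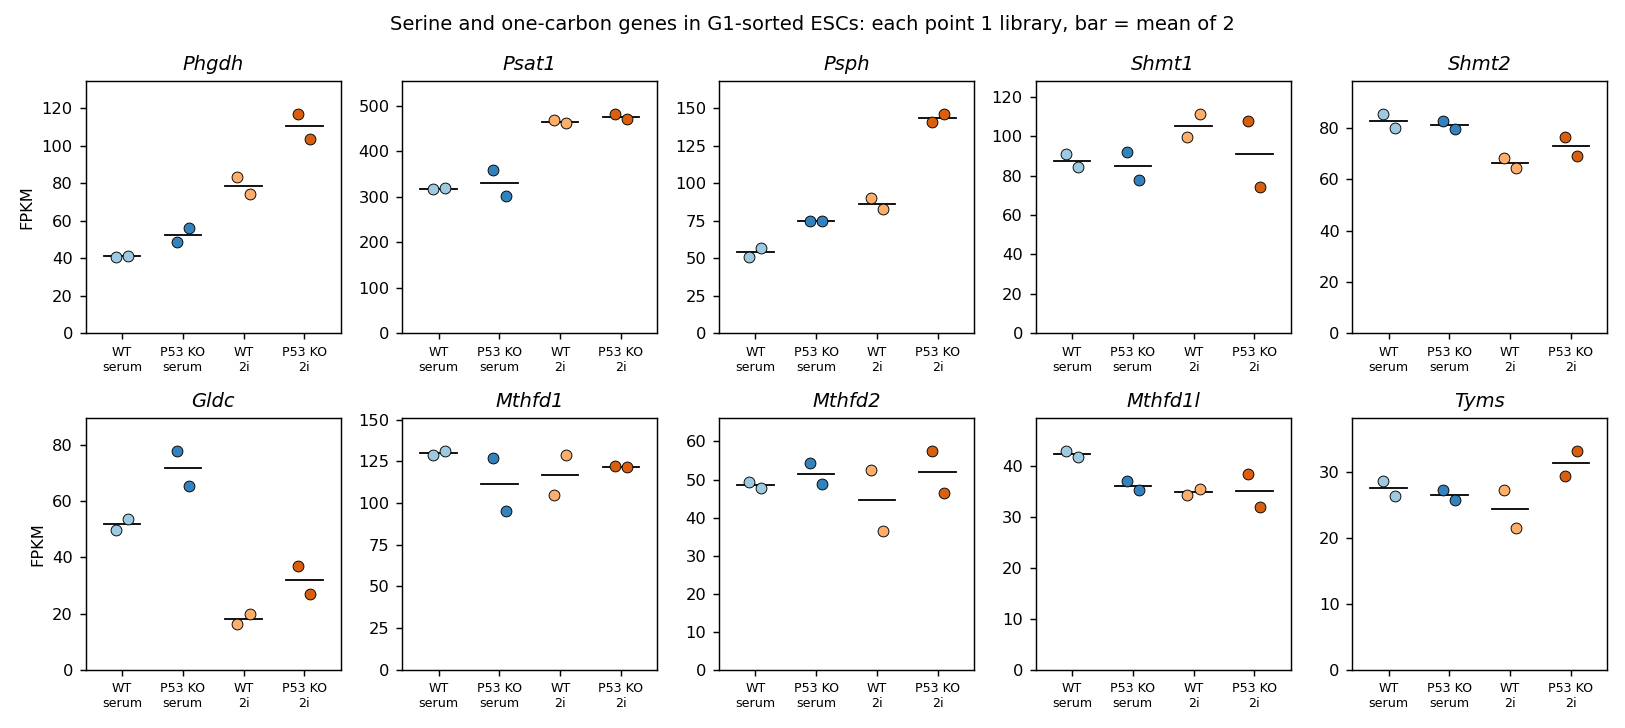
FPKM of the 10 genes, 1 panel per gene with its own axis from 0. Points are single libraries and bars the mean of 2, for each genotype in serum (blue) and 2i (orange). Phgdh and Psph step upwards over the 4 groups without overlap, Psat1 splits by culture, and Gldc is lower in both 2i groups than in either serum group.

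The comparison of 2i with serum asks how the genes differ between the ground state and serum culture. In WT ESCs, 2 of the 10 genes rose in 2i (Phgdh and Psph), 1 fell (Gldc) and 7 were not called. A gene counted as called when its Benjamini-Hochberg p from limma, run on log2(FPKM + 0.1) over all 12572 genes, was below 0.1 and the groups differed more than 1.5-fold. Both limits are those of the study. Of all genes tested, 27.2% were called higher and 28.6% lower in WT 2i, so a smaller share of the 10 than of all genes was called. In P53-/- ESCs the same 3 genes were called in the same directions, where 28.0% of all genes were called higher and 30.1% lower. Of all genes, 22.1% were called higher and 24.1% lower in both genotypes. The median log2 fold change of the 10 was -0.16 in WT and 0.11 in P53-/- ESCs, beside -0.02 and -0.03 for all genes tested. As these are bulk libraries, fewer cells of a type and less RNA per cell cannot be told apart.

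Phgdh, the dehydrogenase that commits 3-phosphoglycerate to serine synthesis, lies at chr3:98313170-98339990 on the minus strand of GRCm38. It was listed at 40.8 and 41.0 FPKM in WT serum and at 83.5 and 74.1 in WT 2i. The P53-/- libraries were listed at 48.4 and 56.1 in serum and at 117 and 104 in 2i. Both 2i groups were above both serum groups, and within each culture both P53-/- libraries were above both WT libraries. The log2 fold change between 2i and serum was 0.94 ± 0.13 (SE, n = 2 per group, limma adjusted p = 0.000582) in WT, a 1.92-fold rise, and 1.08 ± 0.13 (adjusted p = 0.000268), a 2.11-fold rise, in P53-/- ESCs.

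Psph, the phosphatase of the last step, showed the same order of groups as Phgdh and lies at chr5:129765558-129787449 on the minus strand. Its FPKM was 50.8 and 56.9 in WT serum and 90.2 and 82.5 in WT 2i. With P53 lost it was 74.5 and 74.9 in serum and 141 and 146 in 2i. No group overlapped another. Psph rose by 0.68 ± 0.11 on the log2 scale in WT 2i (SE, n = 2 per group, limma adjusted p = 0.00152) and by 0.94 ± 0.11 in P53-/- 2i (adjusted p = 0.000286).

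Psat1, the aminotransferase between these steps and located at chr19:15904678-15947337 on the minus strand, fell short of the fold threshold. Its FPKM was 317 and 318 in WT serum and 468 and 461 in WT 2i. The P53-/- libraries were at 359 and 302 in serum and 482 and 470 in 2i. All 4 libraries in 2i were above all 4 in serum, while genotypes overlapped in serum. The log2 fold change was 0.55 ± 0.14 (SE, limma adjusted p = 0.00948) in WT and 0.53 ± 0.14 (adjusted p = 0.0105) in P53-/- ESCs, which is 1.46-fold and 1.44-fold.

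Gldc, the decarboxylase of the glycine cleavage system, lies at chr19:30098447-30175429 on the minus strand and went the other way. It was listed at 49.9 and 53.5 FPKM in WT serum and at 16.3 and 19.96 in WT 2i. Without P53 it was listed at 77.9 and 65.5 in serum and at 37.0 and 27.0 in 2i. The order was WT 2i, P53-/- 2i, WT serum and P53-/- serum from low to high, with no overlap. Gldc fell by 1.51 on the log2 scale in WT 2i (SE 0.18, limma adjusted p = 0.00032) and by 1.17 in P53-/- 2i (SE 0.18, adjusted p = 0.000952). It was the one member of the 10 called lower in 2i in either genotype.

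The serine hydroxymethyltransferases were not called in either genotype. The mitochondrial Shmt2 (chr10:127517123-127522444, minus strand) was listed at 85.5 and 80.1 FPKM in WT serum and 68.4 and 64.6 in WT 2i. In P53-/- ESCs the values were 82.9 and 79.8 in serum and 76.6 and 69.0 in 2i. All 2i libraries were below all serum libraries, with a log2 fold change of -0.32 in WT (SE 0.11, limma adjusted p = 0.0415) that did not reach 1.5-fold and of -0.16 in P53-/- ESCs (adjusted p = 0.245). The cytosolic Shmt1 (chr11:60788104-60811718, minus strand) was at 90.7 and 84.5 FPKM in WT serum and 99.5 and 111 in WT 2i. The P53-/- values were 91.9 and 77.6 in serum and 108 and 74.4 in 2i. The P53-/- 2i libraries spanned nearly the whole range of this gene. Per length, Shmt2 was at 0.58 to 0.71 of Shmt1 in 3 of the 2i libraries and at 0.90 to 1.03 in the other 5.

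The folate enzymes and thymidylate synthase stayed within narrow ranges. Mthfd1, the cytosolic trifunctional enzyme (chr12:76255298-76319803, plus strand), ran from 95.4 to 131 FPKM over the 8 libraries. Mthfd2 and Mthfd1l, the mitochondrial dehydrogenase-cyclohydrolase and formate synthase (chr6:83305691-83325908, minus strand, and chr10:3973118-4167081, plus strand), ran from 36.5 to 57.6 and from 31.9 to 43.0. Tyms, which makes thymidylate (chr5:30058202-30073617, minus strand), ran from 21.4 to 33.2. Their log2 differences between 2i and serum lay between -0.28 and 0.24, none past the fold threshold, and the 95% intervals of Mthfd2, the widest, were -0.59 to 0.29 in WT and -0.43 to 0.45 in P53-/- ESCs. Mthfd1l came nearest to a call, with both WT 2i libraries (34.3 and 35.5) below both WT serum libraries (43.0 and 41.9) and a limma adjusted p of 0.0847 at a log2 fold change of -0.28.

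Counting libraries instead of fitted calls, in WT 4 of the 10 genes were higher in both 2i libraries than in both serum libraries (Phgdh, Psat1, Psph and Shmt1) and 4 were lower (Shmt2, Gldc, Mthfd1 and Mthfd1l), where 40.0% and 41.7% of all genes tested did so. In P53-/- ESCs 4 were higher (Phgdh, Psat1, Psph and Tyms) and 2 lower (Shmt2 and Gldc), against 39.7% and 42.1% of all genes.

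**Figure D2:**
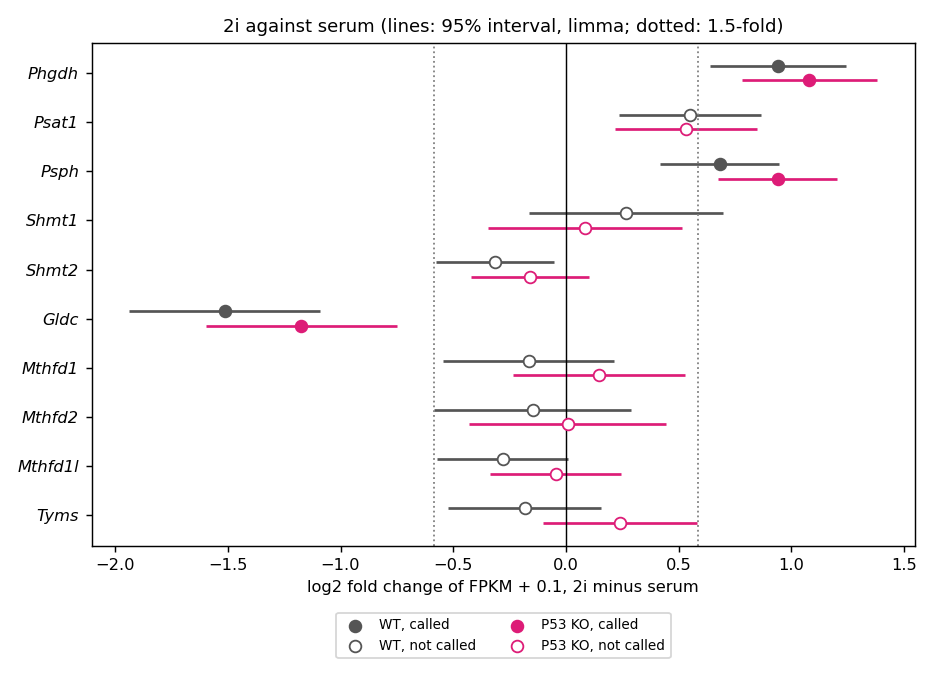
Log2 fold change of FPKM + 0.1 between 2i and serum for the 10 genes, with 95% intervals from limma, in WT (grey) and P53-/- (pink) ESCs. Filled points were called and dotted lines mark 1.5-fold. Phgdh, Psph and Gldc are filled in both genotypes, at 0.94 and 1.08, 0.68 and 0.94, and -1.51 and -1.17.

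The comparison of P53-/- with WT asks which of these genes respond to loss of P53. Each of its groups also enters a comparison of 2i with serum, so the comparisons are not independent. In 2i, 2 of the 10 rose in P53-/- ESCs, Psph and Gldc, and 0 fell, while 4.36% of all genes tested were called higher and 5.97% lower. At an unadjusted p under 0.05 the count was 4, with Phgdh and Tyms added, and 25.2% of all genes tested passed that limit. In serum 0 of the 10 were called, beside 0.135% of all genes called higher and 0.883% lower, and 3 had an unadjusted p under 0.05, namely Phgdh, Psph and Gldc, as did 11.3% of all genes. The median log2 fold change of the 10 was 0.18 in 2i and 0.01 in serum, and that of all genes tested was 0.02 in both.

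In 2i, Psph stood at 141 and 146 FPKM in P53-/- against 90.2 and 82.5 in WT ESCs, a 1.66-fold rise (log2 0.73 ± 0.11, SE, n = 2 per group, limma adjusted p = 0.0132). Psph lies on chromosome 5, where the median of 810 tested genes was 0.24 higher in P53-/- 2i. With each library centred on the median of each chromosome, the Psph difference was 0.49 (adjusted p = 0.0336) and no longer reached 1.5-fold. Gldc rose 1.75-fold in P53-/- 2i, from 16.3 and 19.96 to 37.0 and 27.0 FPKM (log2 0.81 ± 0.18, adjusted p = 0.0427), and with the same centring it was 0.92 higher. The Gldc call was lost without the first P53-/- 2i library (log2 0.58, adjusted p = 0.159), without the first WT 2i library (0.66, adjusted p = 0.142) and without either WT serum library (adjusted p = 0.112 for each), where the log2 difference stayed at 0.81.

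Phgdh had 117 and 104 FPKM with P53 lost in 2i, where WT had 83.5 and 74.1, a log2 difference of 0.49 (95% interval 0.19 to 0.79, limma adjusted p = 0.0665) that stayed under 1.5-fold. Psat1 differed by 0.04 (interval -0.28 to 0.35), and its 4 libraries in 2i lay between 461 and 482. Thus, of the serine synthesis genes, the first and the last were higher in both P53-/- 2i libraries by 1.40-fold and 1.66-fold and the middle one by 1.02-fold. Tyms was at 29.4 and 33.2 against 27.2 and 21.4 (log2 0.37, adjusted p = 0.168). For Shmt1, Shmt2, Mthfd1, Mthfd2 and Mthfd1l the log2 difference in 2i lay between -0.23 and 0.24, with every 95% interval spanning 0.

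In serum, Psph was at 74.5 and 74.9 FPKM in P53-/- against 50.8 and 56.9 in WT ESCs (log2 0.47 ± 0.11, limma adjusted p = 0.174). Gldc was at 77.9 and 65.5 against 49.9 and 53.5 (0.47 ± 0.18, adjusted p = 0.396), and Phgdh at 48.4 and 56.1 against 40.8 and 41.0 (0.35 ± 0.13, adjusted p = 0.374). In all 3 genes both P53-/- libraries were above both WT libraries, and the 95% interval of the difference lay above 0, from 0.21 to 0.74 for Psph, while none passed the test over all genes. Mthfd1 and Mthfd1l were lower in both P53-/- serum libraries, by log2 -0.24 and -0.23 (adjusted p = 0.619 and 0.523), and the other 5 overlapped. In 2i the count of genes without overlap was 6 higher (Phgdh, Psat1, Psph, Shmt2, Gldc and Tyms) and 0 lower. Of all genes tested, 29.0% were higher and 24.7% lower without overlap in 2i, and 25.7% and 21.8% in serum.

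**Figure D3:**
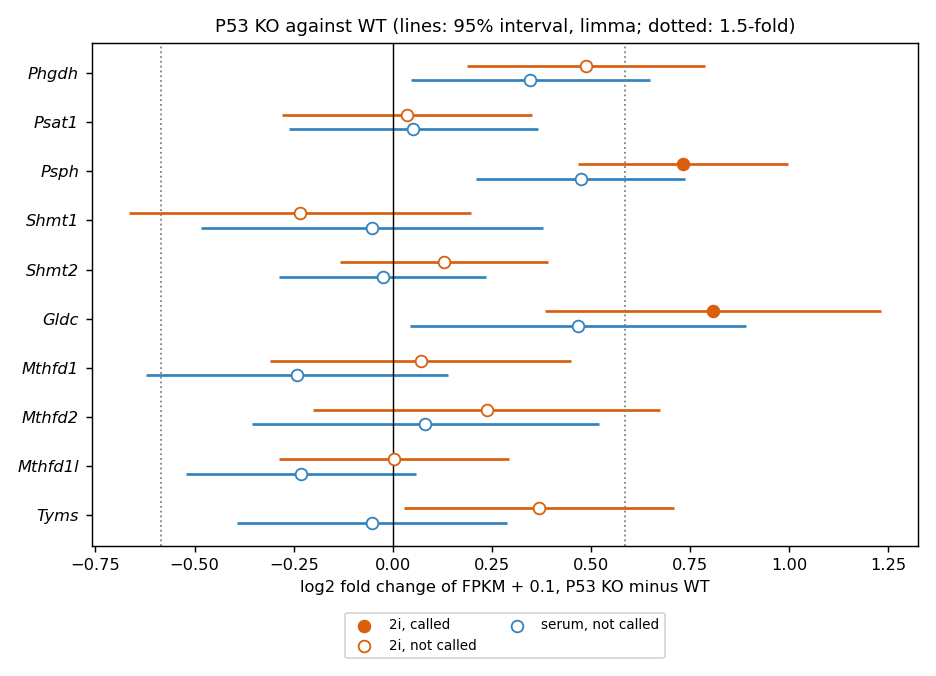
Log2 fold change of FPKM + 0.1 between P53-/- and WT ESCs for the 10 genes, with 95% intervals from limma, in 2i (orange) and serum (blue). Filled points were called and dotted lines mark 1.5-fold. Only Psph and Gldc in 2i are filled, and Phgdh, Psph and Gldc have intervals above 0 in both cultures.

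Whether the effect of P53 loss differed between cultures was tested as the interaction. None of the 10 genes was called, beside 0.207% of all genes called in either direction, and 0 had an unadjusted p under 0.05 in limma, as 13.1% of all genes did. The interaction was 0.26 (95% interval -0.12 to 0.63) for Psph, 0.34 (-0.26 to 0.94) for Gldc and 0.14 (-0.29 to 0.56) for Phgdh. The largest was that of Tyms at 0.42 (-0.06 to 0.90, adjusted p = 0.441). A difference between cultures was therefore not detected for Psph or Gldc, although both were called in 2i and in serum neither was.

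The wider pathway was described with 57 other genes, of which 50 were tested and 7 were at a mean below 0.5 FPKM (Slc7a10, Srr, Sds, Sdsl, Ftcd, Folr2 and Mat1a). In WT ESCs 18 of the 50 rose and 11 fell in 2i, in P53-/- ESCs 20 rose and 9 fell, and 16 rose and 8 fell in both. The shares of all genes were 27.2% and 28.6% in WT, 28.0% and 30.1% in P53-/- ESCs and 22.1% and 24.1% in both, and they apply to the smaller groups below as well. The median log2 fold change of the 50 was 0.24 and 0.38. In P53-/- against WT ESCs, 5 rose and 2 fell in 2i, beside 4.36% and 5.97% of all genes. None of the 50 was called by limma in serum or in the interaction, where 8 and 11 had an unadjusted p under 0.05, as did 11.3% and 13.1% of all genes.

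The genes listed with glycine cleavage and threonine did not move as 1 group. Among the partners of GLDC in the cleavage system Amt rose in 2i, Dld fell and Gcsh was not called. Of the 6 listed, 4 rose in 2i in both genotypes (Amt, Tdh, Gcat and Glyctk) and 1 fell in both (Dld). Of all genes, 22.1% and 24.1% did so. Glyctk was at 1.79 FPKM or less in every library. Amt, the aminomethyltransferase that works beside GLDC, was listed at 41.0 and 42.2 FPKM in WT serum and 135 and 116 in WT 2i, and rose by 1.59 on the log2 scale in WT and 2.43 in P53-/- ESCs. Tdh, threonine dehydrogenase, was at 209 and 186 in WT serum and 518 and 425 in WT 2i, a rise of 1.25, and its partner Gcat rose by 2.11. Dld, the dehydrogenase that the cleavage system shares with other mitochondrial complexes, fell like Gldc, by 1.28 in WT and 0.93 in P53-/- ESCs. Dld was also higher in P53-/- 2i (64.1 and 61.2 FPKM against 34.0 and 41.9, log2 0.73 ± 0.13, limma adjusted p = 0.0202). It lies on chromosome 12, whose median over 456 tested genes was 0.24 higher there, and with chromosome centring the Dld difference was 0.58, just under 1.5-fold. Gcsh, the lipoyl carrier protein of the system, was not called in any comparison.

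Of 14 tested genes of the folate cycle and transport, 5 rose and 5 fell in WT 2i (27.2% and 28.6% of all genes), and 3 rose and 2 fell in P53-/- 2i (28.0% and 30.1%). Aldh1l1, which oxidizes formyl-tetrahydrofolate to carbon dioxide, was listed at 1.01 FPKM or less in every serum library and at 30.7 and 20.9 in WT 2i, and rose by 4.53 in WT and 5.03 in P53-/- ESCs. Mthfs and Mthfd2l fell by 1.27 each in WT, at levels of at most 4.44 and 1.64 FPKM in any library, and were not called in P53-/- ESCs, where their log2 differences were -0.23 and 0.04 (limma adjusted p = 0.54 and 0.949). Mthfsl fell in both genotypes, by 1.07 in WT and 1.71 in P53-/- ESCs. Ggh, which trims polyglutamate from folates, rose by 0.62 in P53-/- against WT ESCs in 2i (limma adjusted p = 0.058), and with chromosome centring it was 0.57 higher and not called.

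In the methionine cycle and transsulfuration, 6 of 13 genes rose in 2i in both genotypes, as did 22.1% of all genes, and 2 fell in WT and 3 in P53-/- 2i, where 28.6% and 30.1% of all genes fell. Bhmt, which remethylates homocysteine from betaine, was listed at 0.04 and 0.07 FPKM in WT serum and 141 and 49.3 in WT 2i, and at 0.12 and 0.05 against 30.3 and 22.3 in P53-/- ESCs. Its log2 difference of 9.09 in WT is on the log2(FPKM + 0.1) scale and depends on that pseudocount, since the serum level is below it. The neighbouring paralogue Bhmt2 rose by 4.79 and 5.89. Mat2a, which makes S-adenosylmethionine, fell by 1.18 and 1.71. The Ahcy-like gene Ahcyl1 fell by 2.25 and 1.39, whereas Ahcy itself rose by 0.66 and 1.01 (limma adjusted p = 0.0207 and 0.00271). In P53-/- against WT ESCs in 2i, Bhmt and Cbs fell (limma adjusted p = 0.0726 and 0.0918) and Ahcyl1 rose (adjusted p = 0.0626). With chromosome centring neither Cbs nor Ahcyl1 was called. The Cbs difference was -0.74 before centring and -0.72 after it (adjusted p = 0.117), and that of Ahcyl1 was 0.63 and 0.56, which is under 1.5-fold.

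Of 7 tested genes of serine and glycine transport and use, 2 rose (Slc6a9 and Sfxn3) and 1 fell (Sfxn1) in WT 2i against serum. Of all genes 27.2% and 28.6% did so. In P53-/- ESCs 4 rose (Slc1a4, Slc6a9, Sfxn3 and Sptlc2) and 1 fell (Sfxn1), as did 28.0% and 30.1% of all genes. In WT, Sfxn3 rose by 1.99, at levels of at most 4.18 FPKM in any library. Sfxn1 fell by 1.37, from 28.2 and 26.6 FPKM to 8.41 and 13.3. Between WT and P53-/- ESCs in 2i, Slc1a4, a transporter of serine and alanine, rose from 10.5 and 10.6 to 22.2 and 17.8 FPKM (log2 0.91 ± 0.17, limma adjusted p = 0.022). Among 4 other thymidine nucleotide genes Dut, the dUTPase, rose in the same comparison (log2 0.78 ± 0.15, adjusted p = 0.0245). Of 6 purine synthesis genes 1 rose and 2 fell in 2i in each genotype, and none was called between P53-/- and WT ESCs in either culture.

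**Figure D4:**
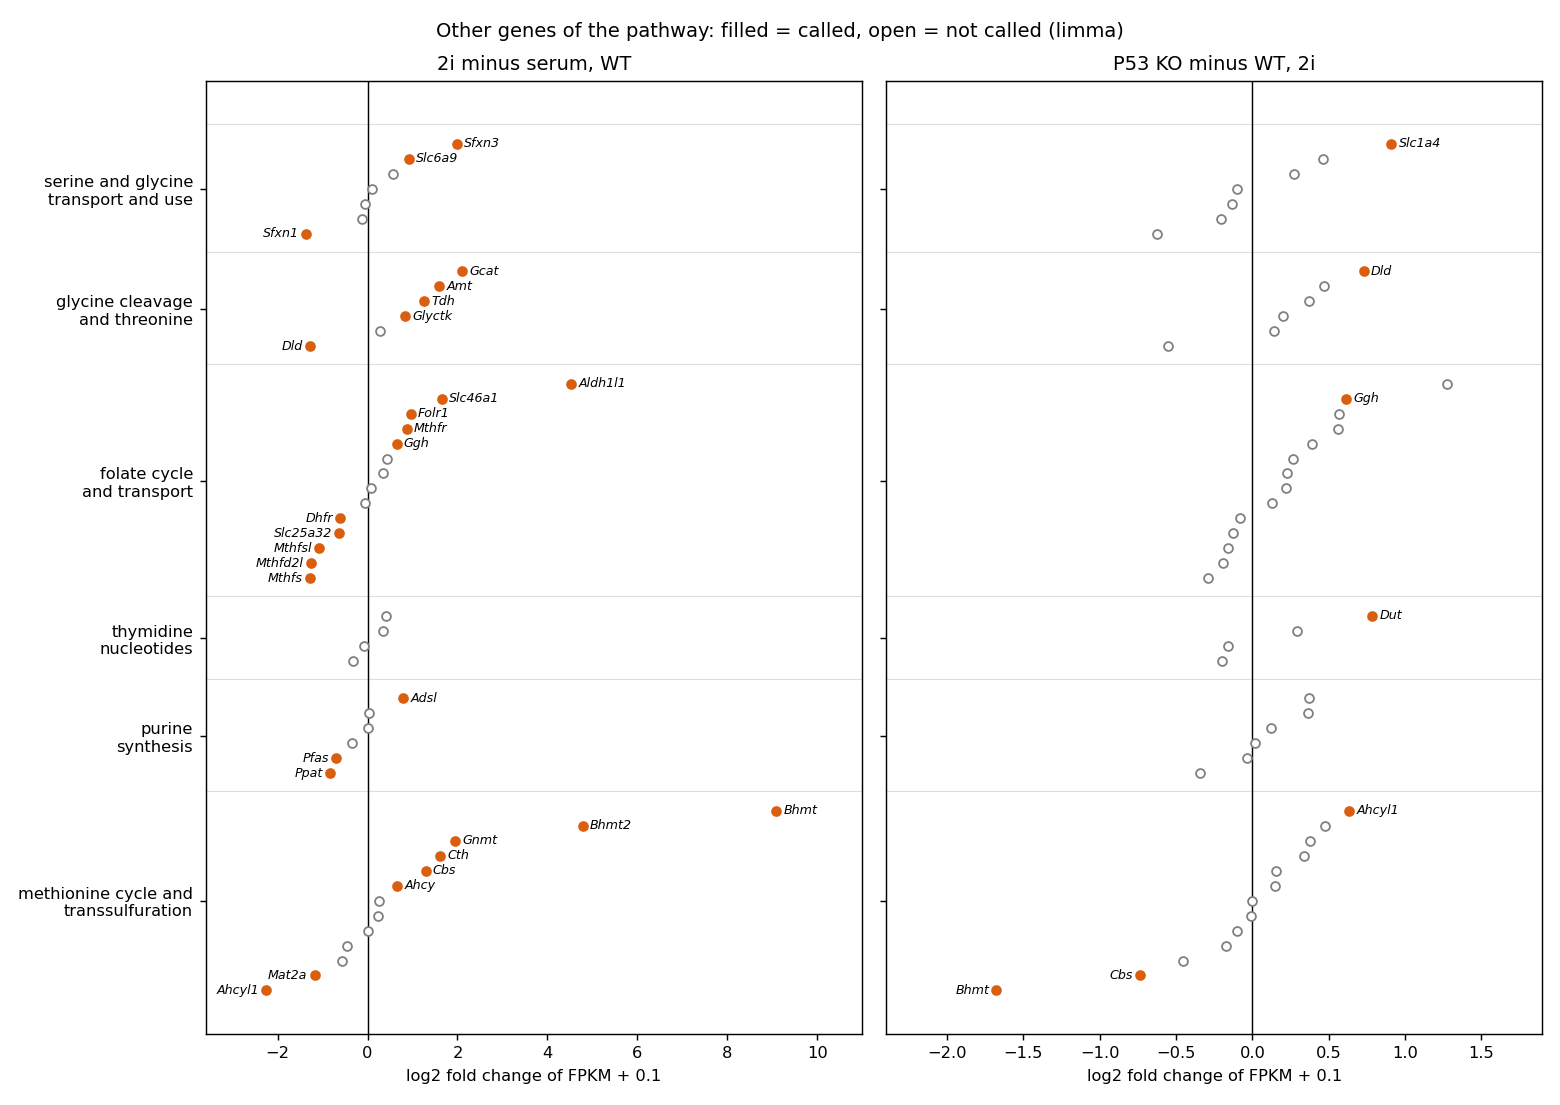
Log2 fold change of FPKM + 0.1 for the 50 other pathway genes, grouped by process, for WT 2i minus WT serum (left) and P53-/- minus WT in 2i (right). Each point is a gene, and filled points with names were called. On the left 18 filled points lie right of 0 and 11 left, and on the right 5 and 2.

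ATF4, a factor of the amino acid response that is known to drive serine synthesis genes, had its RNA at 148 and 127 FPKM in WT serum and 285 and 256 in WT 2i, a rise of 0.98 on the log2 scale (limma adjusted p = 0.00381). A part of ATF4 in the values of the 10 genes was not tested. Of 20 genes of its pathway other than the 10, with Atf4 itself counted among the 20, 11 rose and 0 fell in WT 2i. In P53-/- 2i 16 rose and 0 fell. Of all genes, 27.2% and 28.6% were called higher and lower in WT, and 28.0% and 30.1% in P53-/- ESCs. Between P53-/- and WT ESCs in 2i Atf4 differed by 0.07 (limma adjusted p = 0.879). Of the 20 genes 1 rose there (Stc2) and 2 fell (Sesn2 and Ddit4, both also known as P53 targets), where 4.36% and 5.97% of all genes did so. In serum 0 rose and the same 2 fell, beside 0.135% and 0.883% of all genes. The log2 difference of Sesn2 was -1.37 in 2i and -1.49 in serum, and that of Ddit4 was -1.27 and -2.31 (adjusted p = 0.00218 and 0.000244), with an interaction that did not pass the test (adjusted p = 0.115).

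Genes of the S and G2/M phases, a check on the G1 gate, also differed between the groups. Of 99 such genes 3 rose and 65 fell in WT 2i, with a median log2 fold change of -1.01, where 27.2% of all genes rose and 28.6% fell. In P53-/- against WT ESCs in 2i 15 rose and 3 fell, with a median of 0.28, where 4.36% of all genes rose and 5.97% fell. Tyms, itself expressed mainly around S phase, was not called in either comparison. The part of cell cycle position in the values of the 10 genes was not tested.

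Likeness of profile was measured as the root mean square difference of log2(FPKM + 0.1), centred per gene, over the 8 libraries. For Phgdh the nearest gene of all tested was Uqcc2 (0.075), and for Psph it was Nudt2 (0.10). Phgdh and Psph were each other's nearest among the 10 (0.16), with 51 and 17 other genes nearer. For Gldc the nearest was Tns2 (0.12), which was under 1 FPKM in every library, and no other of the 10 was near, the closest being Shmt2 at 0.64 with 3858 genes nearer.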

How the data were processed

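The authors deposited 1 table of FPKM values for WT and P53-/- G1-phase ESCs in serum and 2i. The submitters' processing notes name STAR, Cufflinks, DESeq2 and mm9 without versions, and the annotation is not given in the sources used here. Libraries were from total RNA after ribosomal RNA depletion, with a stranded kit, but whether counting used strand is not stated. Psph, Psat1, Gldc, Shmt1, Shmt2 and Mthfd1 overlap genes or pseudogenes on the other strand, and Mthfd2 and Mthfd1l overlap annotated features on their own strand, so reads there may be shared, as may those of Tyms with its pseudogene Tyms-ps. Columns name genotype and culture only. Libraries of a group are numbered in column order. The WT 2i columns were taken by name as the WT 2i samples of the P53 set, since a second WT 2i set, for P21-/- ESCs, has titles of another form. The columns give no replicate number that could check this. P21-/- ESCs and that second set were not analysed here. No per-library column of the table was left unused.

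Positions came from GENCODE M21 (GRCm38), matched by symbol for 98.2% of symbols, and are not those of the authors' build. FPKM were used as deposited, and 1285 small RNA genes took 88.5% to 97.6% of a library's sum. Genes averaging 0.5 FPKM or more over the libraries were fitted as log2(FPKM + 0.1) in 1 limma model of the 4 groups (limma 3.58.1, R 4.3.3), with eBayes with trend and Benjamini-Hochberg adjustment of two-sided p values, and the procedure was tested on simulated data. A count test was not used, since FPKM are not counts. Fold changes are on the log2(FPKM + 0.1) scale. With 2 libraries per group no exact test of 1 gene could pass 0.05.

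All 10 genes are named. Other pathway genes are named where called between P53-/- and WT, or among the 5 largest called changes in each direction between 2i and serum. Tdh, Gcsh, Glyctk, Ahcy, Slc6a9 and Sptlc2 were added after their values were seen. The S and G2/M genes are those of Seurat 5.3.0. The genes and lists were chosen with earlier results of these data known. Tables and figures used Python 3.11.15, numpy 2.4.6, pandas 2.3.3, scipy 1.17.1 and matplotlib 3.10.9. Alternatives were pseudocounts of 1 and 0.01, no filter or one at 1 FPKM, median-ratio and quantile scaling, chromosome medians, no small RNA genes, eBayes without trend, an adjusted p under 0.05, the groups compared alone and each library left out.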

Additional observations from a re-analysis of the deposited data

How the results depend on the processing

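In 2i against serum, Phgdh, Psph and Gldc kept their direction and their call in both genotypes under all 19 alternatives, and Psat1 passed 1.5-fold in WT with median-ratio (0.59) or quantile scaling (0.77) and in P53-/- ESCs without the first P53-/- serum library (0.66). No paired analysis was possible because the columns carry no replicate numbers. Between P53-/- and WT ESCs in 2i, 1 of the 10 genes was called with chromosome medians (Gldc) and 1 with only the groups compared (Psph, adjusted p = 0.0969, while Gldc had 0.187), and leaving out a library gave 1 to 2. The other pathway genes called there numbered 3 with chromosome medians (Slc1a4, Dut and Bhmt), 4 without trend, 3 at an adjusted p under 0.05, 0 with only the groups compared (limma on 4 libraries) and 2 to 7 with a library left out. In serum they numbered 0 to 1 with a library left out, the 1 without the first P53-/- serum library. An arm left with 1 library was assumed to vary like the others.

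The values that changed sign were all uncalled. With quantile normalization, P53-/- minus WT in 2i was -0.21 for Psat1, -0.024 for Shmt2, -0.089 for Mthfd1 and -0.10 for Mthfd1l, in serum -0.007 for Psat1, and 2i minus serum was 0.075 for Mthfd1 and 0.04 for Mthfd2 in WT and 0.092 for Mthfd1l in P53-/- ESCs, where median-ratio scaling gave 0.007. With chromosome medians, P53-/- minus WT was -0.081 for Mthfd1 in 2i and 0.002 for Shmt2 and -0.018 for Mthfd2 in serum, the interaction was -0.044 for Phgdh and 0.11 for Psat1, and 2i minus serum was 0.31 for Mthfd1 in WT and -0.19 for Mthfd2 and 0.033 for Mthfd1l in P53-/- ESCs. The causes were not tested. With each library left out, P53-/- minus WT in 2i ran from -0.50 to 0.033 for Shmt1, -0.078 to 0.22 for Mthfd1, -0.026 to 0.50 for Mthfd2 and -0.13 to 0.14 for Mthfd1l. In serum it ran from -0.074 to 0.18 for Psat1, -0.17 to 0.069 for Shmt1, -0.073 to 0.022 for Shmt2 and -0.11 to 0.008 for Tyms. The interaction ran from -0.14 to 0.11 for Psat1, -0.45 to 0.085 for Shmt1 and -0.11 to 0.42 for Mthfd2. In 2i against serum the range was -0.41 to 0.12 for Mthfd2 in WT, and in P53-/- ESCs -0.18 to 0.35 for Shmt1, -0.15 to 0.16 for Mthfd2, -0.18 to 0.09 for Mthfd1l and -0.059 to 0.35 for Mthfd1. With 2 libraries per group, the standard errors of the 10 genes, 0.11 to 0.19 on the log2 scale, limited what could be told apart in a culture. Counting error, estimated from the depth given above and the longest annotated transcript in the library with fewest fragments, was an SD of 1.3% (Psat1) to 5.1% (Gldc) of the level, and depends on the factor common to all libraries that the depth does not give.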
